A study of Mus musculus with 7 samples.

Results

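The immediate early response genes Fos, Fosb, Jun, Junb, Egr1, Ier2, Ier3, Dusp1 and Atf3 were followed in mouse colon through repeated TNBS colitis and the weeks after it. They were chosen by symbol, 9 of the 8251 genes that the array's probe sets name, and all 9 were on the array. TNBS (trinitrobenzene sulphonic acid) couples to proteins of the bowel wall, which the immune system then attacks. All mice were female CD-1 outbred animals aged 10 to 12 weeks at the start, and each group was measured as a single RNA pool from colon 4 ± 0.5 cm above the anus. The TNBS mice had 6 enemas of TNBS in ethanol and were killed 3 days later (week 6 pool, 6 mice), 2 weeks later (week 8 pool, 4 mice), 4 weeks later (week 10 pool, 5 mice) or 6 weeks later (week 12 pool, 4 mice). The saline controls had 6 saline enemas. RNA of 5 of them, killed after 3 days, made the week 6 saline pool, which was measured on 2 arrays. RNA of 4 others, 2 killed at 2 weeks and 2 at 4 weeks, made the later saline pool. No pool had ethanol alone, and no saline mice were killed as late as the week 12 TNBS mice.

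Immediate early genes are transcribed within minutes of a stimulus, from factors already present in the cell, without new protein synthesis. Growth factors, cytokines and stress reach them through MAP kinases, the serum response factor SRF and CREB. Fos and Fosb pair with Jun and Junb to form the transcription factor AP-1, and Dusp1 switches MAP kinases off again. In gut these transcripts are found in epithelium, muscle and stroma, and they also respond to the handling of tissue between death and freezing. The saline pools were therefore compared with each other as well.

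Some control elements of these genes lie close to the start of transcription, and the 250 bases before it are shown for 4 members. They stand for the Fos family, the Jun family and the phosphatase. The sequences are RefSeq's for GRCm38.p6, a table that held 7 of the 9 genes (not Egr1 and Ier2). They are read 5′ to 3′ on the gene's strand: Fos at chr12:85473640-85473889 on the plus strand, Fosb at chr7:19310046-19310295, Junb at chr8:84978749-84978998 and Dusp1 at chr17:26508473-26508722 on the minus strand. Capitals mark every match to the motifs named after the sequences.
Fos: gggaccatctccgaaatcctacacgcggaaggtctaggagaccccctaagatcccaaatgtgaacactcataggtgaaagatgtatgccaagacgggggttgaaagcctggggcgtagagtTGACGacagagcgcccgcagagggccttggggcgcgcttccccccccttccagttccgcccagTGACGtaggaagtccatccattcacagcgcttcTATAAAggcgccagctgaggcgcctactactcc
Fosb: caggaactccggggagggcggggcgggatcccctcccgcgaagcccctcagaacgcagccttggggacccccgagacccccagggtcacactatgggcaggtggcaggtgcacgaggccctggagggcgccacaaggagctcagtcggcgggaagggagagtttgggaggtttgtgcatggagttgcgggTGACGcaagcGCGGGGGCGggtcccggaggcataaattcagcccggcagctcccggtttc
Junb: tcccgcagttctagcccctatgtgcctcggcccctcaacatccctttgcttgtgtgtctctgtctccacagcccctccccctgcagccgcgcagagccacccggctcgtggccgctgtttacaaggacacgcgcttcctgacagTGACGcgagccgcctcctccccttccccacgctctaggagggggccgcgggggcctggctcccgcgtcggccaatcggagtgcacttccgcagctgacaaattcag
Dusp1: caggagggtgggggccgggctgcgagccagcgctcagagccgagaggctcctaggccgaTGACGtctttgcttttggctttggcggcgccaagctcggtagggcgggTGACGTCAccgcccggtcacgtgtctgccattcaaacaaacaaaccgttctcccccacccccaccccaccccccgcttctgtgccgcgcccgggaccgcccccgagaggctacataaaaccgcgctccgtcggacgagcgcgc

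Motifs were searched on both strands. TGACG, the core of the site that CREB and ATF proteins bind, was found in 5 of the 7 members (Fos, Fosb, Junb, Dusp1 and Atf3) and in 17.8% of the 32851 promoters of the table. The full palindrome TGACGTCA, which contains TGACG, was found in Dusp1 alone, from base 143 to base 136 before the start, and in 1.55% of all promoters. Fos held TATAAA from base 33 to base 28 before its start, a motif found in 12.4% of promoters. Fosb held GCGNGGGCG, the site of Egr proteins, which 4.7% of promoters contain. The AP-1 site TGANTCA and the CArG box of SRF were in none of the 7 windows, against 6.75% and 1.47% of all promoters. Sequence further from the start than 250 bases was not searched, so a gene without a match here may hold the site elsewhere. A match or its absence is a property of these letters and says nothing of factor binding in colon.

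The signal of a probe set is a scaled intensity on a linear scale, and values under 50 were treated as a floor. All 7 arrays carried colon epithelium: Krt8, a keratin of simple epithelium, read 4275 to 7694 and Krt20, another epithelial keratin, 2700 to 5086. Median signals were 51.8 to 61.2, and log2 values correlated between arrays with r of 0.952 to 0.987 across probe sets, which are not independent. Beta-actin's 3′ to 5′ signal ratio, which responds to RNA breakdown and to labelling, ran from 1.14 to 1.24 over the 3 week 6 arrays and from 0.798 to 0.818 over the 4 later ones. The arrays of week 6 saline differed by an SD of 0.29 on the log2 scale over the 4316 genes that reached 100 in at least 1 pool. All 9 members were among these genes.

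Fos, the founding AP-1 subunit, had signals of 441.5 and 440.4 on the arrays of week 6 saline and 641.1 in week 6 TNBS. It read 706.1 in the later saline pool, 778.0 at week 8, 626.7 at week 10 and 767.2 at week 12. The week 6 saline pool was thus the lowest of the 6, and the later saline pool lay inside the range of the TNBS pools. Fos was 1.45-fold higher in TNBS than in saline at week 6 (log2 0.54). It was 1.10-fold higher at week 8, 1.13-fold lower at week 10 and 1.09-fold higher at week 12. Another Fos probe set lay under the floor on all 7 arrays.

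Fosb, a paralogue of Fos, read 78.1 and 101.5 on the arrays of week 6 saline, 130.0 in week 6 TNBS and 130.6 in the later saline pool. At weeks 8, 10 and 12 it read 92.1, 59.9 and 101.7. Fosb was 1.46-fold higher than saline at week 6. All later TNBS pools, which share 1 saline pool, lay below it. The week 10 difference was 2.18-fold (log2 -1.12). It was the only one of any member, on its chosen probe set, that passed 2-fold between TNBS pools and their saline controls. These signals are near the floor, and with a floor of 100 the week 10 log2 difference was -0.39.

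Jun, the partner that lets AP-1 bind DNA with Fos proteins or with itself, read 52.2 and 80.2 on the arrays of week 6 saline and 71.1 in week 6 TNBS. It read 114.9 in the later saline pool and 72.0, 107.5 and 113.8 at weeks 8, 10 and 12. The week 6 arrays and the week 8 pool were low and the other 3 pools high, in saline and TNBS alike. The week 8 difference was 1.60-fold lower (log2 -0.67), close to the log2 difference of -0.62 between the arrays of week 6 saline. At the other weeks the log2 differences were 0.14, -0.10 and -0.01.

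Junb, a further Jun protein, has 2 probe sets in the data, and both placed the week 10 TNBS pool highest. The brighter one read 217.7 and 270.9 on the arrays of week 6 saline, 202.3 in week 6 TNBS, 263.8 in the later saline pool, and 333.6, 444.3 and 277.0 at weeks 8, 10 and 12. The other read 185.4 and 163.2, 188.9, 205.0, and 309.1, 410.6 and 208.2. At week 10 Junb was 1.68-fold higher than the later saline pool on the brighter probe set and 2.0-fold higher on the other, and at week 8 it was 1.26-fold and 1.51-fold higher. At week 6 the probe sets went opposite ways, at log2 -0.26 and 0.12, and at week 12 both were within 0.07 of saline.

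Egr1, a zinc finger transcription factor induced through SRF, read 92.7 and 111.7 on the arrays of week 6 saline and 103.9 in week 6 TNBS. The later saline pool had the highest signal, 159.1, and the TNBS pools had 137.2, 102.8 and 134.0 at weeks 8, 10 and 12. The week 6 pools differed by log2 0.03. All later TNBS pools lay below their shared control, by 1.16-fold, 1.55-fold and 1.19-fold. A further Egr1 probe set was under the floor throughout.

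Ier2, a nuclear protein named for its rapid induction, read 371.4 and 383.0 on the arrays of week 6 saline, 344.8 in the later saline pool, and 235.7, 270.0, 340.5 and 341.3 in the TNBS pools of weeks 6, 8, 10 and 12. Both saline pools lay above all 4 TNBS pools, a gap that was 1.60-fold at week 6, 1.28-fold at week 8 and 1.01-fold at weeks 10 and 12. The arrays of week 6 saline differed by log2 -0.04 for this gene, more than the gaps at weeks 10 and 12 (log2 -0.02 and -0.01).

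Ier3, a stress-inducible regulator of cell survival, was highest in week 6 TNBS. It read 84.7 and 99.1 on the arrays of week 6 saline, 154.2 in that TNBS pool, 138.7 in the later saline pool, and 121.7, 107.6 and 83.5 at weeks 8, 10 and 12. It was 1.68-fold higher than saline at week 6 (log2 0.75), and 1.14-fold, 1.29-fold and 1.66-fold lower at weeks 8, 10 and 12 against the later saline pool. The TNBS pools were thus ordered by time, but the week 12 value is close to that of week 6 saline.

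Dusp1, the dual-specificity phosphatase that inactivates MAP kinases, varied least. Its 7 signals ran from 262.9 to 302.0, a span of 1.12-fold between the pools, and only 0.417% of the tested genes spanned less. Atf3, a stress-induced factor of the ATF family, read 248.7 to 291.6 in every pool except week 8, where it read 400.6 (1.37-fold above the later saline pool). That rests on a probe set of the family type, whose probes can match related transcripts. A dimmer Atf3 probe set read 82.1 to 121.9 and had a week 8 log2 difference of -0.03, and a last one was under the floor.

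**Figure D1:**
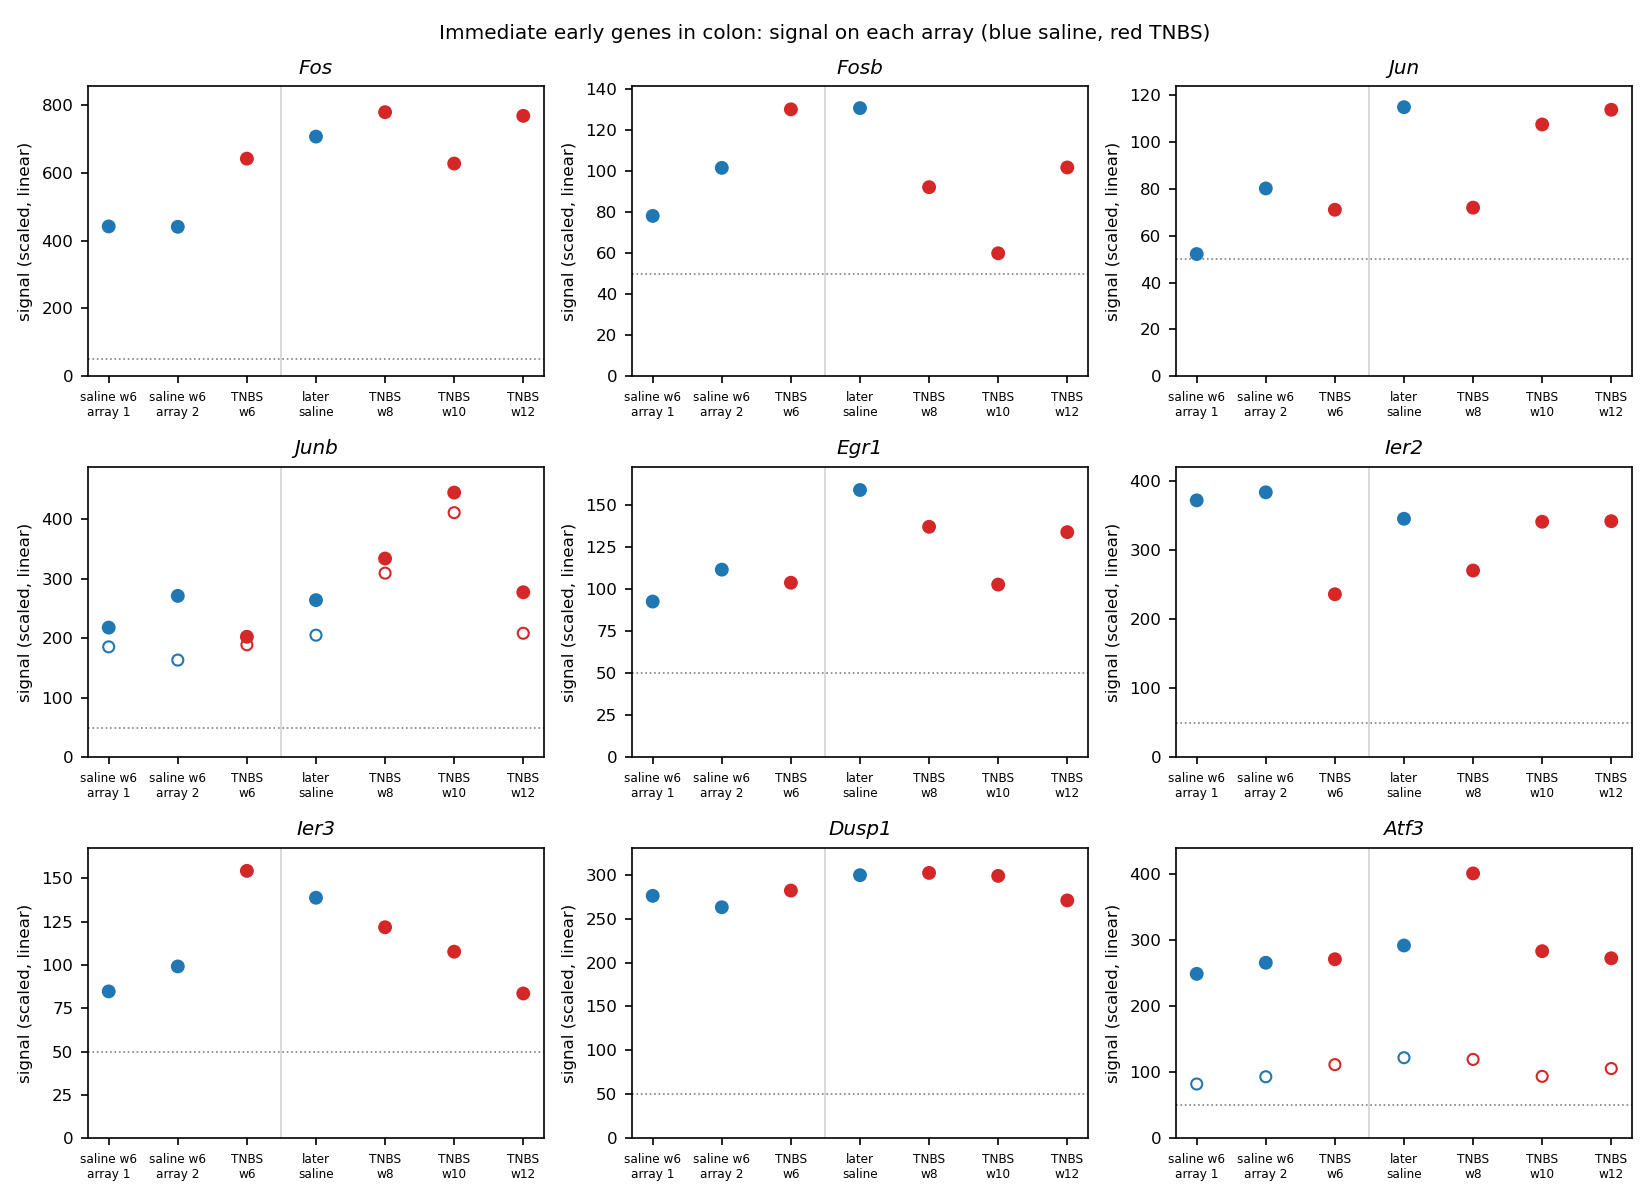
Signal (linear, scaled to a common target) of each gene on the 7 arrays, saline in blue and TNBS in red, with the week 6 arrays left of the vertical line. Filled points are the probe set used for the gene, open points further probe sets above the floor, and the dotted line is the floor of 50. Fos is lowest on both week 6 saline arrays (441.5 and 440.4), and Junb is highest in the week 10 TNBS pool (444.3).

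Across the 6 pools the members spanned a median of 1.76-fold from lowest to highest, beside a median of 1.63-fold over all genes tested. Of 36 pairs of members, 24 had a positive correlation of log2 signal over the 6 pools. The median was r = 0.24, with the highest 0.69 for Fos and Egr1 and the lowest -0.84 for Fosb and Junb. The points are 6 pools that share array scaling, so these values describe and do not test. No share over pairs of all genes stands beside them.

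The TNBS differences of the members were then counted beside those of all genes. At 2-fold in either direction, 0 of 9 members were counted at week 6, where 3.54% of all genes were. The counts were 0 of 9 at week 8 (3.29% of genes), 1 of 9 at week 10 (1.48%) and 0 of 9 at week 12 (1.6%). At 1.5-fold, a threshold added after the values were seen, the counts were 2 of 9 at week 6 (Ier3 higher, Ier2 lower; 13.5% of genes) and 1 of 9 at week 8 (Jun lower; 16.3%). They were 3 of 9 at week 10 (Junb higher, Fosb and Egr1 lower; 11.2%) and 1 of 9 at week 12 (Ier3 lower; 10.2%). The median log2 difference of the members was 0.08, -0.19, -0.10 and -0.10 at weeks 6, 8, 10 and 12, beside -0.02, -0.07, 0.0 and 0.0 over all genes. There is 1 pool on each side, so none of these differences has a replicate or a test. At week 6 the summed signal of 11 leukocyte markers was 3276 in saline and 6600 in TNBS (Itgam at the floor), and that of 8 pancreas markers 2721 and 6592. At week 8 the pancreas sum was 9576, against 2347 in later saline. The part of these cells in the members' differences was not tested, and in bulk RNA fewer cells of a type and less RNA per cell cannot be told apart.

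The saline pools differed from each other as well. Their mice were killed at different times after the last enema (3 days against 2 and 4 weeks), which cannot be told apart from other differences between these pools. The later saline pool was above the week 6 saline pool for 8 of the 9 members, all but Ier2, where 51.5% of all genes were above. The median log2 difference of the members was 0.55, against 0.01 over all genes. Jun was 1.78-fold higher (log2 0.83), Fos 1.60-fold (0.68), Egr1 1.56-fold (0.64), Ier3 1.51-fold (0.60) and Fosb 1.47-fold (0.55). Jun reached the filter of 100 only in later pools, later saline (114.9) among them. At 1.5-fold 4 of 9 members were higher, against 5.05% of genes, and at 2-fold in either direction 0 of 9 differed, against 1.81%. Between the arrays of week 6 saline, 7 of 9 members were lower on the first array, against 48.8% of genes, with a median log2 difference of -0.23. Against the first array alone Jun, at 114.9 to 52.2, passed 2-fold, and against the second it was 114.9 to 80.2. The median of 0.55 became 0.36 without the first array and 0.15 with a filter of 200, which leaves 5 members. It was 0.28 with the mean of each gene's probe sets (8 members) and 0.20 with a floor of 100. Under that floor, which lifts both week 6 saline values of Jun to 100, Jun was at log2 0.20. With the mean of probe sets, which averages Fos with a probe set held at the floor, Fos was at 0.34. For Jun and Fos these alternatives make the difference smaller by construction. Under the mean of probe sets Junb rose from log2 0.12 to 0.18 and Atf3 from 0.18 to 0.22. Egr1 (0.64 in the main setting) did not pass the filter there.

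Other measures separated the saline pools too. The beta-actin ratio given above moved with the same split of arrays, whereas that of Gapdh overlapped between them (0.912 to 0.942 on the week 6 arrays and 0.869 to 1.0 on the later ones). Of 11 epithelial markers above the filter, 8 were higher in the later saline pool (median log2 0.33), with Car1 2.31-fold and Fabp2, a fatty acid carrier, 2.15-fold higher. Tff3, a goblet cell peptide, Lgals4 and Cdh1 went the other way, at 0.656, 0.724 and 0.769 of their week 6 saline signal. The summed signal of the 12 measured was nearly equal, at 30654 in week 6 saline and 30972 in later saline. The summed signals of 8 smooth muscle markers were 17197 and 18238, and of 11 leukocyte markers 3276 and 3157 (Itgam at the floor). Those of 8 fibroblast and endothelial markers were 3640 and 3158 (Kdr at the floor), and the 4 above the filter were all lower in later saline (median log2 -0.34). The sums of 5 adipose markers were 540 and 653 (Retn at the floor). Only 2 of them were above the filter, with a median log2 of 0.67. Adipoq was 2.48-fold higher in later saline (134.5, against 45.3 and 58.9 on the week 6 saline arrays) and Lep 1.03-fold higher. The sums of 8 pancreas markers were 2721 and 2347, but singly 4 were higher in later saline and 2 lower (median log2 0.31). Ctrb1 was 1.89-fold, Cel 1.55-fold and Cela2a 1.6-fold higher, and Prss2, under the floor in week 6 saline, at least 2.58-fold higher. Cela1 and Clps were at 0.719 and 0.603 of their week 6 saline signal, and Pnliprp1 and Reg2 were under the floor in both. The part of these in the members' difference was not tested.

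**Figure D2:**
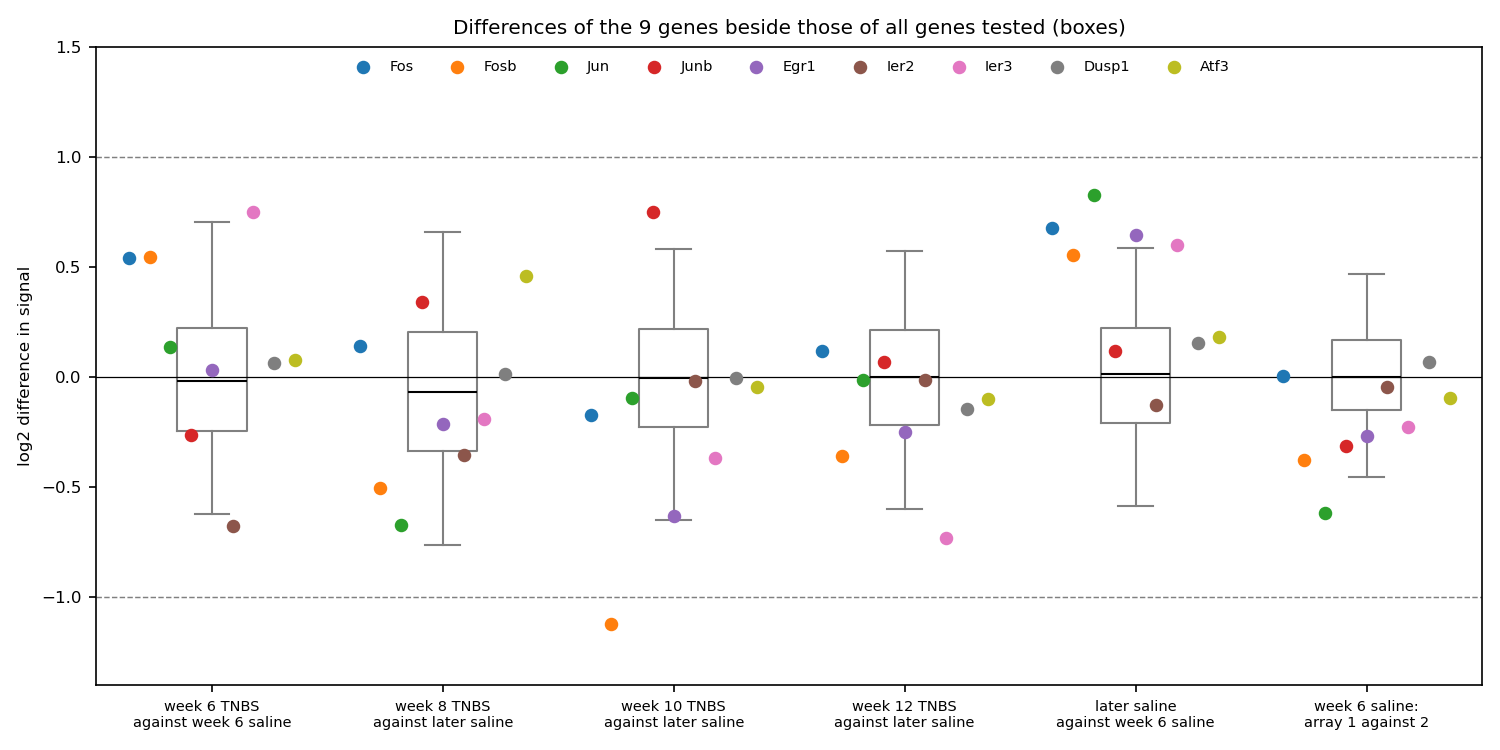
Log2 difference in signal of the 9 genes (coloured points) in the 4 TNBS comparisons, between the saline pools, and between the arrays of week 6 saline. Week 6 TNBS is set against week 6 saline, and each later TNBS pool against the later saline pool. Boxes show the quartiles of all 4316 genes tested with whiskers from the 5th to the 95th percentile, and dashed lines mark 2-fold. In the comparison of saline pools 8 of 9 genes lie above 0, and Fosb at week 10 (-1.12) is the only point beyond 2-fold.

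The direction of the TNBS differences changed with the saline pool used. Against its matched control, the week 6 TNBS pool was higher for 7 of 9 members (47.3% of genes), and for 5 of 9 without the first week 6 saline array or with a floor of 100. Against the later saline pool it was higher for 1 of 9, Ier3 (46.8% of genes). Fos then had a log2 difference of -0.14 in place of 0.54, and Jun -0.69 in place of 0.14. The week 8, 10 and 12 TNBS pools were higher than the later saline pool for 4, 1 and 2 of 9 members (42.8%, 48.9% and 49.9% of genes). Against the week 6 saline pool they were higher for 8, 7 and 7 (42.8%, 50% and 51.9%), with Fos at log2 0.82, 0.51 and 0.80. These comparisons share pools and are not independent. Ier2 was below 0 against either saline pool in all 4 TNBS pools, and Junb at weeks 8, 10 and 12 was above 0 against either. Some of these differences were small. Against later saline Ier2 was at log2 -0.02 and -0.01 at weeks 10 and 12, and with equal array medians at 0.12 and 0.05. Junb at week 12 was at 0.07 against later saline, on a probe set whose week 6 saline arrays differed by log2 -0.32.

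The models over all 6 pools took TNBS pools of different times as replicates, with the set of pools (week 6 or later) as a covariate. No member passed limma's adjusted threshold of 0.05 for TNBS, and 0.0% of the 4316 genes did. At an unadjusted p of 0.05, 0 of 9 members passed and 220 genes did, 5.1%. The estimate furthest from 0 was that of Ier2, at log2 -0.35 (SE 0.20, 95% interval -0.80 to 0.11, limma adjusted p = 0.887). Ier2 was lower in 4 of 4 TNBS pools, though at weeks 10 and 12 by only log2 -0.02 and -0.01. Fos was at 0.23 (-0.20 to 0.67), Egr1 at -0.21 (-0.72 to 0.31), Fosb at -0.18 (-0.97 to 0.61), Junb at 0.13 (-0.43 to 0.68) and Jun at -0.10 (-0.74 to 0.54). Atf3 was at 0.09 (-0.37 to 0.56), Ier3 at 0.04 (-0.65 to 0.74) and Dusp1 at 0.0 (-0.37 to 0.36). All 9 intervals contain 0. The estimates rest on which pools are in the model. Without the later saline pool, which leaves the week 6 pair to set the TNBS estimate, Fosb was at log2 0.55, Ier3 at 0.75, Ier2 at -0.68, Fos at 0.54 and Junb at -0.26. Without either week 6 pool, which leaves the later comparison, they were at -0.66, -0.43, -0.13, 0.03 and 0.39. The pools within a group are single, so the intervals reflect how pools vary, which is not how mice vary, and the later saline pool is taken to vary like the TNBS pools.

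The same model compared the 4 later pools with the 2 week 6 pools, TNBS accounted for. This split is also one of time after the last enema (3 days against 2 to 6 weeks) and of the beta-actin ratio. These cannot be told apart. The estimates were log2 0.59 for Jun (SE 0.28), 0.51 for Junb (0.24), 0.41 for Egr1 (0.22) and 0.37 for Fos (0.19). Their limma adjusted p-values were 0.457, 0.46, 0.512 and 0.493, so none passed, and 0.0% of all genes did. Fosb (-0.17) and Ier3 (-0.11) were on the other side of 0, and Ier2, Atf3 and Dusp1 were at 0.20, 0.20 and 0.09. At an unadjusted p of 0.05, 0 of 9 members passed against 498 genes, 11.5%. The interval of Jun ran from -0.05 to 1.23, so a 2-fold difference between the sets is inside it.

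**Figure D3:**
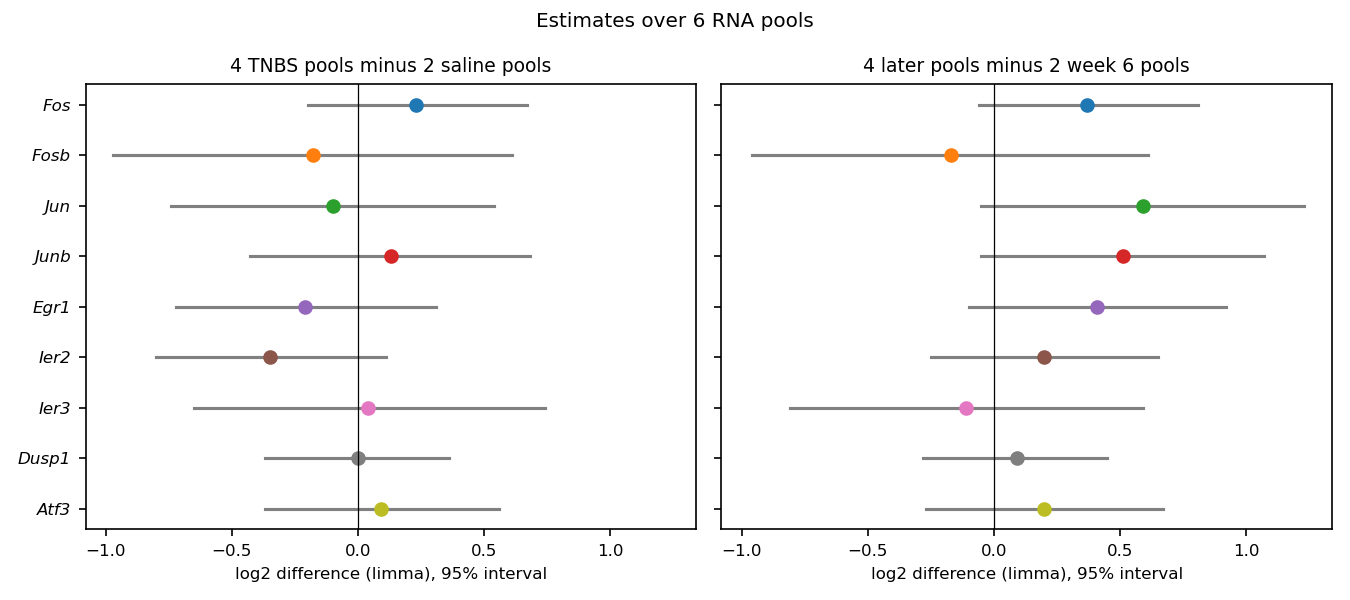
Estimates of the limma model over 6 RNA pools for each gene, in log2 units, with 95% intervals: TNBS against saline on the left and later against week 6 pools on the right. All intervals include 0, and Jun, Junb, Egr1 and Fos lie furthest to the right in the comparison of sets (0.59, 0.51, 0.41 and 0.37).

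The model of the 3 later TNBS pools against the later saline pool takes its spread from those TNBS pools alone, which were of different times, since saline is 1 pool. No member passed (0.0% of genes did, and 79, or 1.83%, at an unadjusted p of 0.05, with 0 members). Fosb was at log2 -0.66 (interval -1.60 to 0.27), Ier3 at -0.43 (-1.21 to 0.35), Junb at 0.39 (-0.39 to 1.17) and Egr1 at -0.36 (-1.10 to 0.37), each with a limma adjusted p of 1.0. Whether the TNBS effect differed between week 6 and later was tested as an interaction, whose spread comes from the same 3 pools. No member passed limma's adjusted threshold there, nor did any gene (0.0%), and at an unadjusted p of 0.05 it was 80 genes, 1.85%, and 0 members.

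Related genes, listed by role with earlier results of these data known, were set beside the 9 members. Of 12 other AP-1 family members and partners, 11 were on the array and 4 passed the filter. Their median log2 difference between later and week 6 saline was 0.21. Jund, the constitutive Jun protein, read 3507 in week 6 TNBS against 4519 and 3530 in saline. It read 5131, 2602 and 1993 at weeks 8, 10 and 12 against 4496 in later saline, 1.14-fold higher and then 1.73-fold and 2.26-fold lower. Atf2, which pairs with Jun, was 1.31-fold lower at week 6 and 1.27-fold, 1.67-fold and 1.88-fold higher at weeks 8, 10 and 12. Mafk differed by at most 1.35-fold, at week 12.

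Of 20 other immediate early regulators, 15 were on the array and 8 passed, with a median of -0.01 between the saline pools. Cebpd, an acute phase transcription factor, read 625.4 and 636.1 on the arrays of week 6 saline and 313.6 in the later saline pool, 2.01-fold lower, the opposite direction to Fos and Jun. Its TNBS pools of weeks 8, 10 and 12 were 1.92-fold, 1.59-fold and 1.5-fold higher than that low control. Cebpb was 1.78-fold higher at week 6 and 1.12-fold, 1.71-fold and 1.55-fold higher later. Hes1, a Notch target, was 1.48-fold lower at week 8.

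Of 25 feedback and early effector genes, 22 were on the array and 18 passed, with a median of -0.04 between the saline pools. Gadd45g, a stress gene, read 146.1 and 122.3 in week 6 saline and lay under the floor in week 6 TNBS, at least 2.67-fold lower. Gadd45b, its paralogue, was 1.66-fold higher at week 6. At week 8 it was under the floor and at least 2.19-fold below the later saline pool, and it was 1.65-fold lower at weeks 10 and 12. Ccn2, a matrix protein induced by TGF-beta, was 1.90-fold higher at week 8. Of 17 upstream kinases and SRF pathway genes, 12 were on the array and 6 passed, with a median of 0.11. Egfr, the receptor of epidermal growth factor, was 1.97-fold higher at week 12, where it read 114.4 against 58.0 in later saline, but week 6 saline read 117.9 and 93.1. Map2k4, a kinase upstream of JNK, was 1.63-fold higher in later than in week 6 saline and Map2k1 1.39-fold lower at week 6.

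Of 9 heat shock genes, which also respond to stress of cells, 8 passed the filter, with a median of 0.04 between the saline pools. Hspe1 and Hsp90aa1 were 1.74-fold and 1.73-fold higher at week 8, and Hsph1 was 1.62-fold higher at week 12. In none of these 5 lists did a gene pass limma's adjusted threshold in any of the 4 models, in which 0.0% of all genes did. At an unadjusted p of 0.05 in the comparison of sets, 0 of 4 AP-1 genes, 4 of 8 other regulators and 2 of 18 feedback genes passed. So did 1 of 6 upstream genes and 1 of 8 heat shock genes, beside 11.5% of all genes. Of the other regulators 6 of 8 were below 0 there (median log2 -0.21), whereas 7 of 9 members were above 0 (median 0.20). For TNBS 2 of 8 other regulators passed at that level and no gene of the remaining lists, beside 5.1% of all genes.

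**Figure D4:**
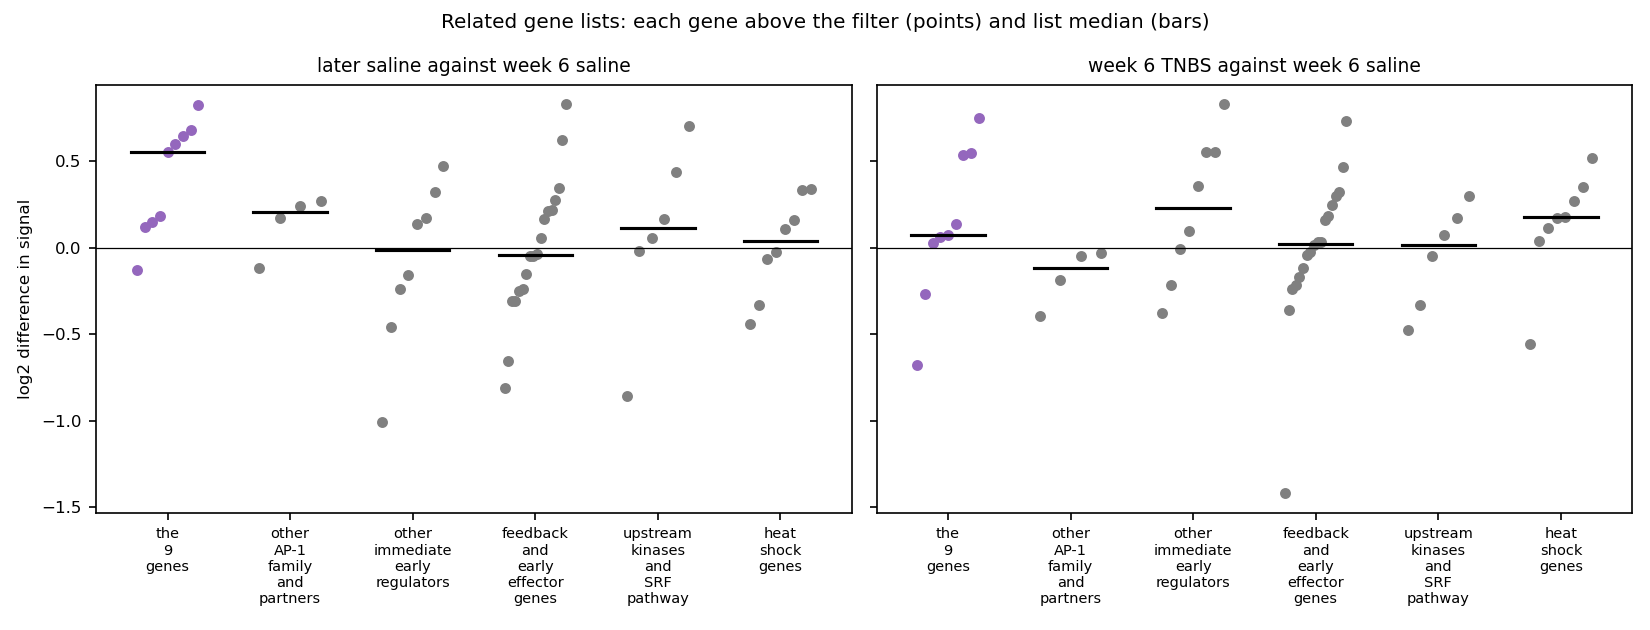
Log2 difference in signal between the saline pools (left) and between TNBS and saline at week 6 (right) for the 9 genes and 5 lists of related genes. Points are the genes above the filter and bars the list medians. The median of the 9 genes is 0.55 between the saline pools, and that of each other list lies between -0.04 and 0.21.

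For the 2 members whose highest and lowest pools differed at least 2-fold, the genes with the most similar pattern were sought among 722 genes above the floor with at least that range. The likeness is Pearson's r of log2 signals over 6 pools and has no p, since the closest of many genes were taken. Nearest to Fosb were Lor (loricrin, of cornified epithelium; r = 0.958), Cdh3 (P-cadherin; 0.934) and Prc1 (a protein of cytokinesis; 0.902). Lor read 82.9 and 93.1 on the arrays of week 6 saline, 118.5 in week 6 TNBS, 100.3 in the later saline pool and 78.6, 51.4 and 87.4 at weeks 8, 10 and 12, also near the floor. Nearest to Junb were Isoc1 (0.970), Nav2 (0.963) and Nr1d2, a nuclear receptor of the circadian clock (0.946). Nr1d2 read 121.0 and 102.1, 87.9, 157.3, and 190.7, 273.1 and 110.7 on the same arrays, with the highest signal at week 10 as for Junb.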

How the data were processed

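Per the labels, the authors pooled the RNA of each group's mice, labelled 10 µg, and computed a signal intensity per probe set with Affymetrix Microarray Suite 5.0, with every array scaled so that its target was 150. These deposited intensities were the starting point. The table held 12488 probe sets, of which 66 controls were dropped. GEO's 2016 annotation named 1 gene for 10833 probe sets (10817 matched RefSeq), several for 396 and none for 1193.

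Values under 50 were set to 50 before log2, each gene was represented by its brightest probe set (mean log2), and both week 6 saline arrays were averaged. Genes reaching 100 in at least 1 pool were tested (4316 of 8251). A difference was counted at 2-fold. Models used limma 3.58.1 in R 4.3.3 (two-sided moderated tests with a trended prior variance, Benjamini-Hochberg over all genes tested). The pooled model was run on simulated data with independent noise, in which 200 genes were changed. Residual SDs were shuffled among genes, and the change was the same in every TNBS pool or, for the set term, in every later pool. Changes that differ between TNBS pools, such as those of opposite sign at week 6 and later, were not simulated. For TNBS the model recovered 94% of genes changed by log2 2 and 49.5% of those changed by log2 1. For the set term it recovered 94% and 41%, so many 2-fold differences would be missed. The number of arrays limits the precision. The members and lists were chosen with earlier results of these data known. All members are named. Of each other list the genes at least 2-fold different in the 4 TNBS comparisons or between the saline pools are named. Where fewer than 3 were, the 3 furthest from 0 are named. For members with a 2-fold range the 3 genes most like them are named. Alternatives changed the floor, the probe set rule, the scaling, the filter, the control pool, the arrays and pools included, the covariate and the trend. The 1.5-fold count, a fit per probe set and a fit without the week 6 saline pool were added after seeing the data.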

Additional observations from a re-analysis of the deposited data

Results flagged for a closer look

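For 5 members the TNBS difference at week 6 had the opposite sign to those at weeks 8, 10 and 12. The later comparisons share the later saline pool. Their difference was tested as the interaction in limma, later minus week 6, and none passed. The estimates were log2 -1.21 for Fosb (adjusted p = 0.999), -1.18 for Ier3 (0.999), -0.40 for Jun (0.999), -0.39 for Egr1 (0.999) and 0.65 for Junb (0.999). Without the first week 6 saline array Jun and Egr1 were below 0 at week 6 too (log2 -0.17 and -0.10), and with a floor of 100 they were at 0.0 and -0.02. For Junb the other probe set was above 0 at week 6 too, at log2 0.12.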

How the results depend on the processing

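No paired analysis was possible because each group is a single pool and only the week 6 saline arrays carry a replicate number. Over the alternatives, the smallest limma adjusted p of a member was 0.753 for TNBS and 0.268 for the set term. With a floor of 100, which makes many values equal and so lowers their variance, 1 member (Fosb) passed in the late model (log2 -0.38, limma adjusted p = 0.021) and 1 (Fosb) in the interaction (-0.74, 0.0122). All genes called then numbered 69 and 189. Without the filter, which adds genes at the floor on most arrays, they numbered 17 (TNBS), 182 (late), 489 (interaction) and 23 (set), no member among them. Leaving out 1 pool or array gave 0 to 2 genes for TNBS (2 without the week 12 pool), 0 to 1 for the set term (1 without the week 8 pool) and 0 for both other models, again without a member. The number of members at least 2-fold different at week 10 was 1, and 0 with a floor of 100, with log2(value + 50), with equal array medians (Fosb -0.99), with a filter of 200, which leaves 5 members, or against week 6 saline. Between the saline pools it was 0 to 1 when a saline array was left out (Jun, without the second array). The 1.5-fold counts were 2, 1, 3, 1 and, between the saline pools, 4. With equal medians, which shift the median of all genes (0.18 at week 8, 0.14 at week 10, 0.06 at week 12), 5 members were above 0 at week 10 and 4 at week 12. With a filter of 200 it was 4, 1 and 2 of 5 members at weeks 8, 10 and 12. At week 6 it was 7 of 9, and 5 of 9 without the first saline array or with a floor of 100. With the other saline pool it was 1 of 9 at week 6 and 8, 7 and 7 later. The saline median of 0.55 became 0.20 under the floor of 100, 0.15 under the filter of 200, 0.28 with the mean of probe sets and 0.36 without the first week 6 saline array. With the mean of probe sets Egr1 did not pass the filter. The cause of these changes was not tested unless given.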
